A study of Mus musculus with 20 samples.

Results

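The 4 flavin-containing monooxygenases (Fmo1, Fmo2, Fmo4 and Fmo5), the aldehyde oxidases Aox1 and Aox3, and xanthine dehydrogenase (Xdh) were followed in mouse liver, chosen by gene symbol, 7 genes out of 37681 genes listed in each table. All 7 are among the 15578 genes tested. The livers came from 10 male mice, 12 weeks old, of a strain labelled C57/BL6 and written C57/B6J in the protocol. At 4 hours before collection, 5 had received IL-1β, a cytokine that starts inflammatory signaling, at 20 μg/kg, and 5 had received saline (untreated). Both injections were intraperitoneal. Each liver RNA was sequenced on Illumina and on Ion Torrent, and each platform was aligned with STAR, GSNAP and STAR + Bowtie2, giving 6 tables of 10 libraries. Mice are named by group (ILB for IL-1β, UNT for untreated) and number. The Illumina STAR table is described first, and the other 5 serve as checks.

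FMOs sit in the endoplasmic reticulum membrane and use FAD, NADPH and oxygen to add an oxygen atom to nitrogen and sulfur atoms of drugs, dietary amines and other small molecules. Aldehyde oxidases are cytosolic enzymes with FAD, iron-sulfur clusters and a molybdenum cofactor, and oxidize aldehydes and nitrogen-containing rings. Xdh shares that architecture and cofactor but works in purine breakdown, turning hypoxanthine into xanthine and xanthine into uric acid. The liver is a main site of expression for these families.

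In short, 4 hours after IL-1β, transcripts of all 4 FMOs and both aldehyde oxidases were lower, whereas Xdh was higher. Fmo4 and Fmo2 fell most, to 11.2% and 12.97% of the untreated level. Fmo1, Aox3 and Aox1 fell to 39.5%, 49.6% and 51.8%, and Fmo5 to 66.3%. Xdh rose to 218% of the untreated level. These percentages are back-transformed log2 fold changes from edgeR's quasi-likelihood test after TMM scaling, which corrects library size for the makeup of each library. A gene was called at an adjusted p below 0.05 (Benjamini-Hochberg over the 15578 genes). Of all genes tested in this table, 22.9% were called lower and 22.7% higher, and 33.9% had 5 treated and 5 untreated mice that did not overlap. Against this background, 6 of the 7 genes were called lower, 1 was called higher, and 6 had groups that did not overlap. The median log2 fold change was -1.01 for the 7 genes and 0.00 for all genes tested.

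Total counts per library in the Illumina STAR table were 10568530 to 10655860 in treated and 10887640 to 11046256 in untreated mice. The untreated totals were thus all above the treated ones, and this held in the other 5 tables too. The hepatocyte markers were the most abundant of the cell type lists, with a summed 85695 to 95621 TMM CPM (counts scaled to a common library size) in treated and 93701 to 115696 in untreated mice. In these bulk livers, fewer cells of one type and less RNA per cell cannot be told apart. Of 8 hepatocyte markers, 4 were called lower and 1 higher. Of 8 neutrophil markers, 7 were tested and all 7 were called higher, with a summed level of 52.7 to 117 CPM in treated and 2.13 to 6.24 CPM in untreated mice. Of 8 Kupffer cell and macrophage markers, 3 were lower and 1 higher (73.9 to 172 against 133 to 232 CPM). Of 8 endothelial markers, 4 were lower and 2 higher (104 to 185 against 181 to 250.5 CPM). Stellate cell markers gave 3 of 6 lower (240 to 346 against 316 to 393 CPM), and cholangiocyte markers 2 of 5 tested (of 6 listed) higher (42.0 to 73.9 against 46.1 to 63.3 CPM). No marker was at 0 in all 10 libraries. The part of these shifts in the levels of the 7 genes was not tested.

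Fmo4, Fmo1 and Fmo2 are neighbors on the minus strand of chromosome 1 (mm9). Fmo4 (ENSMUSG00000026692) lies at chr1:164724014-164744103, Fmo1 (ENSMUSG00000040181) at chr1:164759692-164796679 and Fmo2 (ENSMUSG00000040170) at chr1:164804448-164828857. Fmo5 (ENSMUSG00000028088) stands alone on the plus strand at chr3:97432727-97459205. Aox1 (ENSMUSG00000063558, chr1:58086775-58163257) and Aox3 (ENSMUSG00000064294, chr1:58169974-58257542) follow each other on the plus strand of chromosome 1 with 6.72 kb between them, ahead of Aox4 and Aox3l1. Xdh (ENSMUSG00000024066) lies on the minus strand at chr17:74233248-74299522. The longest coding transcripts had 9 exons in Fmo1, Fmo2 and Fmo5 and 10 in Fmo4, with 1599 to 1683 coding bases. Those of Aox1, Aox3 and Xdh had 35, 35 and 36 exons, with 4002 to 4008 coding bases.

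Whether reads could be shared between the paralogs was checked from their sequences. Coding sequences were 61.3% to 65.1% identical between pairs of the 4 FMOs, 67.6% between Aox1 and Aox3, and 63.0% between Xdh and either of them. No 50-base stretch of the longest coding transcript of Fmo1, Fmo2, Fmo4, Aox1, Aox3 or Xdh was found unchanged in a coding transcript of another gene. In Fmo5, 21 of 5148 such stretches were, none of them touching the coding part. Pseudogenes and noncoding transcripts were not searched, and neither were exon bases outside the chosen transcripts or stretches with mismatches. Sharing of reads with those was therefore not tested. The longest identical coding stretch of the tandem aldehyde oxidases is printed with the 20 coding bases on either side, to show how soon the sequences part from each other. Capitals mark the identical bases. Aox1 and Aox3 share 20 bases in exon 3 of both genes, at chr1:58100433-58100452 and chr1:58175489-58175508.
Aox1: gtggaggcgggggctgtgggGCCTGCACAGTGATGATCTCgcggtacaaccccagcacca
Aox3: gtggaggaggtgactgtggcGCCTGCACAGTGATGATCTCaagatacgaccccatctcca
This stretch is shorter than the 50 bases of that search. No annotated gene shared exon bases with any of the 7 genes, and SNORA17, which overlaps Aox3, shares none of its exon bases.

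Promoter windows of 250 bases before the RefSeq start were given for Fmo2, Fmo4, Fmo5, Aox1 and Aox3, and none was used for Fmo1 or Xdh. Each window was found once on its chromosome in mm9. The windows of Fmo4 and Fmo5 held 104 and 215 bases of annotated exons and are not printed. Those of the tandem genes Aox1 and Aox3, which fell side by side, and of Fmo2, 1 of the pair that fell most, are shown up to the first annotated exon base, with capitals for letters that matched a motif. The windows lie at chr1:58086563-58086774 (plus strand), chr1:58169730-58169973 (plus strand) and chr1:164828890-164829139 (minus strand).
Aox1: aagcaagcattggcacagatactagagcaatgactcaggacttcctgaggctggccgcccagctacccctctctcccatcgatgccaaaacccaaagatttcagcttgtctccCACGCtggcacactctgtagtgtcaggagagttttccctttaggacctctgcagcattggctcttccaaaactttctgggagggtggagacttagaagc
Aox3: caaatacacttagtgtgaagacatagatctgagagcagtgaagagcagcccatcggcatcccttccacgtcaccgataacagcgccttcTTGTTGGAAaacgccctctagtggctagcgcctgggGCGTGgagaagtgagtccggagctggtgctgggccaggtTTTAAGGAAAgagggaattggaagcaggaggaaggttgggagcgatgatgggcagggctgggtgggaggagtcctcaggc
Fmo2: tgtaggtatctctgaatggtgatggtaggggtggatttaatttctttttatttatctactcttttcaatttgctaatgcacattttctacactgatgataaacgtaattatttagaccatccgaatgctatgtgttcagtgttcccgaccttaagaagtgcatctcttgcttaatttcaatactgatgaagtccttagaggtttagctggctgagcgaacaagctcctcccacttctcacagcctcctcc
The 6 motifs listed here were searched on both strands: CAAAGTCCA (the HNF4 type), TTNCNNNAA (C/EBP), TTCNNNGAA (STAT), TGACNNNGC (antioxidant response), GCGTG (xenobiotic response) and a kB type of GGG, any 5 bases and CC. The Aox3 window held 3 C/EBP matches, of which those starting 86 and 85 bases before the start overlap, and 1 xenobiotic response match. The Aox1 window held 1 xenobiotic response match, the Fmo5 window 2 kB matches, and the windows of Fmo2 and Fmo4 none of the 6. Of 32851 RefSeq windows of the same length, 32.9% held a C/EBP match, 28.2% a xenobiotic response match, 45.8% a kB match, 10.2% an antioxidant response match, 7.0% a STAT match and 0.4% an HNF4 match. A match is a match of letters and not a site, and the motifs that matched are common in these windows.

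Xdh, the member that rose, was also the most even one between mice. Its Illumina STAR counts were 4629, 5021, 4414, 5097 and 4847 in treated mice ILB_9577, ILB_9578, ILB_9579, ILB_9582 and ILB_9583. In untreated mice UNT_9574, UNT_9575, UNT_9576, UNT_9580 and UNT_9584 they were 2594, 2827, 2400, 2504 and 2128. Every treated mouse was above every untreated mouse, and the groups were further apart than the spread inside them. In TMM CPM, the level was 473 ± 32.1 (SD, n = 5) with IL-1β and 217 ± 16.5 without, a coefficient of variation of 6.79% and 7.60%. The log2 fold change was 1.13 (SE 0.09, edgeR adjusted p = 1.96e-07), with a 95% interval of 191% to 250% of the untreated level. By size, Xdh ranked 1054th of the 3541 genes called higher.

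Fmo5, which differs from the other FMOs in favoring carbonyl substrates, was the most abundant member and the least changed. Counts were 7377, 7223, 9021, 10920 and 10104 in treated mice ILB_9577, ILB_9578, ILB_9579, ILB_9582 and ILB_9583. They were 13247, 21164, 16859, 9978 and 15131 in untreated mice UNT_9574, UNT_9575, UNT_9576, UNT_9580 and UNT_9584. The groups overlapped. In TMM CPM, untreated mouse UNT_9580 (887) lay below treated mice ILB_9579 (896), ILB_9583 (1017) and ILB_9582 (1083). The level was 882 ± 174 CPM with IL-1β and 1329 ± 350 CPM in untreated mice (SD, n = 5 each), and untreated mice alone spanned a 2.03-fold range. The log2 fold change was -0.59 (SE 0.18, edgeR adjusted p = 0.0137), with a 95% interval of 50.9% to 86.5% of the untreated level. With the study's rank-sum test on the counts as deposited, without TMM, 24.5% of genes were called lower and 13.8% higher. There Fmo5 had a log2 fold change of -0.77 with q = 0.0699 and was the only member not called. Both the test and the scaling differ there from the edgeR fit.

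Fmo1, long studied for its broad range of drug substrates, fell by 1.34 on the log2 scale (SE 0.15, edgeR adjusted p = 4.69e-06). Its counts were 1063, 1000, 1359, 1323 and 977 in treated and 2908, 3334, 4170, 2364 and 3588 in untreated mice, in the same order of mice. Every treated mouse was below every untreated mouse. The level was 113 ± 18.6 CPM against 285 ± 61.5 CPM (SD, n = 5 each), a 2.53-fold difference.

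Fmo2, best known from the lung, fell by 2.95 on the log2 scale (SE 0.25, edgeR adjusted p = 2.44e-07). Counts were 76, 40, 40, 55 and 51 in treated and 360, 465, 729, 274 and 457 in untreated mice. The highest treated mouse, ILB_9577, had fewer reads than any untreated mouse. The level was 5.14 ± 1.34 CPM against 39.8 ± 14.7 CPM, 7.71-fold lower with IL-1β, and Fmo2 ranked 89th by size among the 3575 genes called lower.

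Fmo4, the least abundant of the 7, had the largest fall of the 7 in the Illumina STAR table. Counts were 9, 15, 8, 6 and 6 in treated and 84, 58, 96, 80 and 128 in untreated mice. The treated values rest on few reads, but all lie far under the lowest untreated value. The level was 0.865 ± 0.362 CPM against 7.84 ± 2.56 CPM, 8.92-fold lower (log2 fold change -3.16, SE 0.29, edgeR adjusted p = 6.34e-07). Its 95% interval, 7.29% to 17.2% of the untreated level, overlaps that of Fmo2 (9.01% to 18.7%).

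Other paralogs were too low to be tested. Fmo9 had 2 and 0 reads, Aox3l1 1 and 1, and Aox4 0 and 0 over the treated and untreated groups, and a total of 0 allows up to 3 reads. Aox3l1 had 9 treated and 27 untreated reads in Illumina STAR + Bowtie2, but 1 and 0 with the same aligner on Ion Torrent, and 6 and 2 in Ion Torrent GSNAP. Fmo6 was not analysed here.

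Aox3, the main aldehyde oxidase of mouse liver, fell by 1.01 on the log2 scale (SE 0.14, edgeR adjusted p = 3.27e-05). Counts were 4561, 3417, 5250, 5460 and 4737 in treated mice ILB_9577, ILB_9578, ILB_9579, ILB_9582 and ILB_9583. In untreated mice UNT_9574, UNT_9575, UNT_9576, UNT_9580 and UNT_9584 they were 13625, 10287, 8669, 10979 and 10012. The groups did not overlap, and no treated mouse reached the lowest untreated mouse, UNT_9576. The level was 462 ± 81.5 CPM against 932 ± 143 CPM (SD, n = 5 each).

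Aox1, its tandem neighbor, fell by 0.95 on the log2 scale (SE 0.18, edgeR adjusted p = 0.0005). Counts were 905, 912, 1313, 1286 and 727 in treated and 2286, 1753, 2019, 2177 and 2935 in untreated mice, again with no overlap. The level was 101 ± 25.9 CPM against 196 ± 46.4 CPM.

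**Figure D1:**
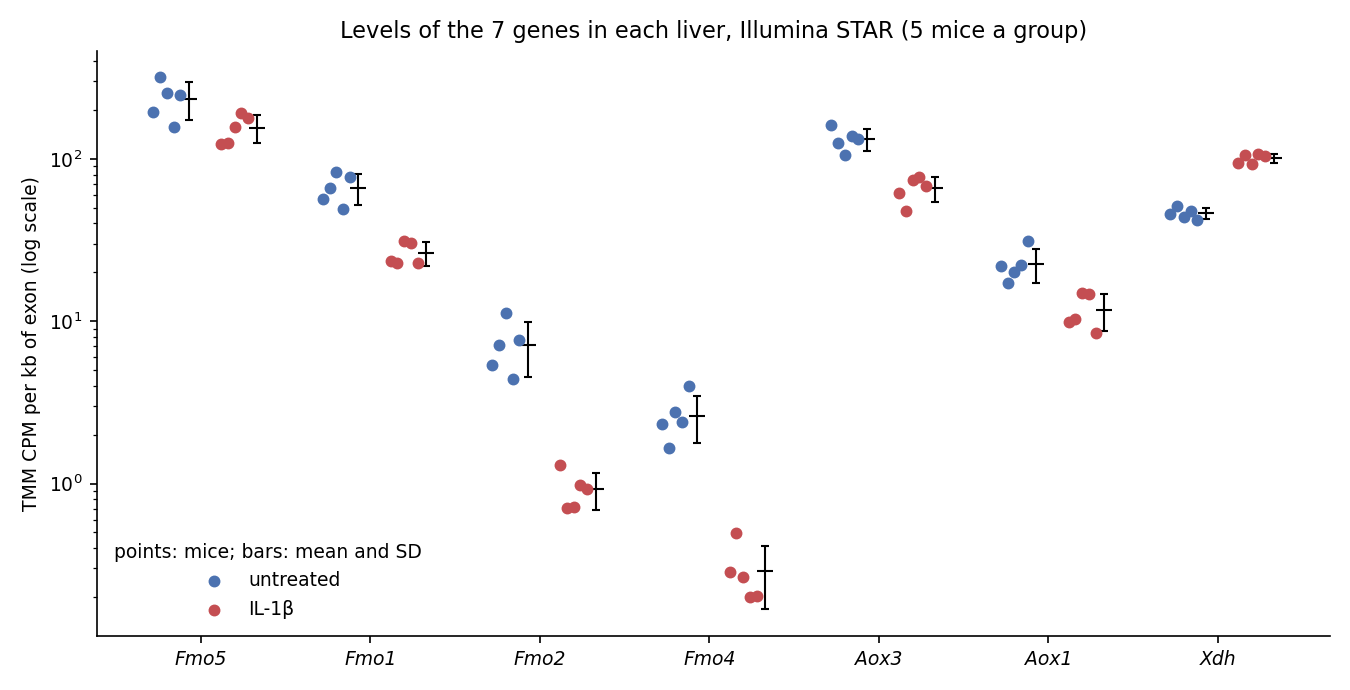
Level of each of the 7 genes in each liver of the Illumina STAR table, as TMM CPM per kb of exon on a log axis, with untreated mice in blue, treated mice in red, and bars for the mean and SD of 5 mice. The groups are apart for 6 genes, Fmo5 is the exception, and Xdh alone is higher in the treated mice.

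Levels between genes were compared per length, as TMM CPM per kb of all annotated exon bases. In untreated livers, Fmo5 came first (234 ± 61.7), followed by Aox3 (133 ± 20.3), Fmo1 (66.4 ± 14.3), Xdh (46.2 ± 3.51), Aox1 (22.5 ± 5.34), Fmo2 (7.18 ± 2.65) and Fmo4 (2.62 ± 0.858). Neighbors in this order did not overlap between mice, except Fmo5 with Aox3 and Fmo1 with Xdh. In treated livers, Xdh (101 ± 6.84 per kb) stood above Aox3 (65.7 ± 11.6) and below Fmo5 (155 ± 30.6), and no neighbors overlapped. Per kb of the longest coding transcript, a choice added after the data were examined, the order of the means was the same. On that scale Xdh (103 ± 7.0) and Aox3 (100.3 ± 17.7) overlapped in treated mice, and so did Xdh (47.2 ± 3.59) and Aox1 (44.3 ± 10.5) in untreated mice.

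Among the 3 enzymes with a molybdenum cofactor, Xdh passed Aox3 per kb of exon, and Aox1 was last in both groups. The summed level of Aox1, Aox3 and Xdh per kb of exon was 165, 164, 183, 199 and 180 in treated mice ILB_9577, ILB_9578, ILB_9579, ILB_9582 and ILB_9583. In untreated mice UNT_9574, UNT_9575, UNT_9576, UNT_9580 and UNT_9584 it was 229, 193, 170, 208 and 206, so the groups overlapped. Xdh made up 56.8% ± 4.96 of that sum with IL-1β and 23.2% ± 3.0 without, ranging from 51.2% to 64.4% and from 20.1% to 26.6%. Aox3 made up 36.7% ± 4.35 and 65.6% ± 3.04 (SD, n = 5 each). The sum of the 4 FMOs was 148, 150, 190, 223 and 203 in the treated and 258, 392, 352, 212 and 337 in the untreated mice. Untreated mouse UNT_9580 lay below treated mouse ILB_9582, and the other untreated mice were above all treated mice. Fmo5 supplied 84.8% ± 2.2 of the FMO sum with IL-1β and 75.2% ± 3.38 without. These shares describe the levels and were not tested. They depend on the length used, as given in the closing part.

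**Figure D2:**
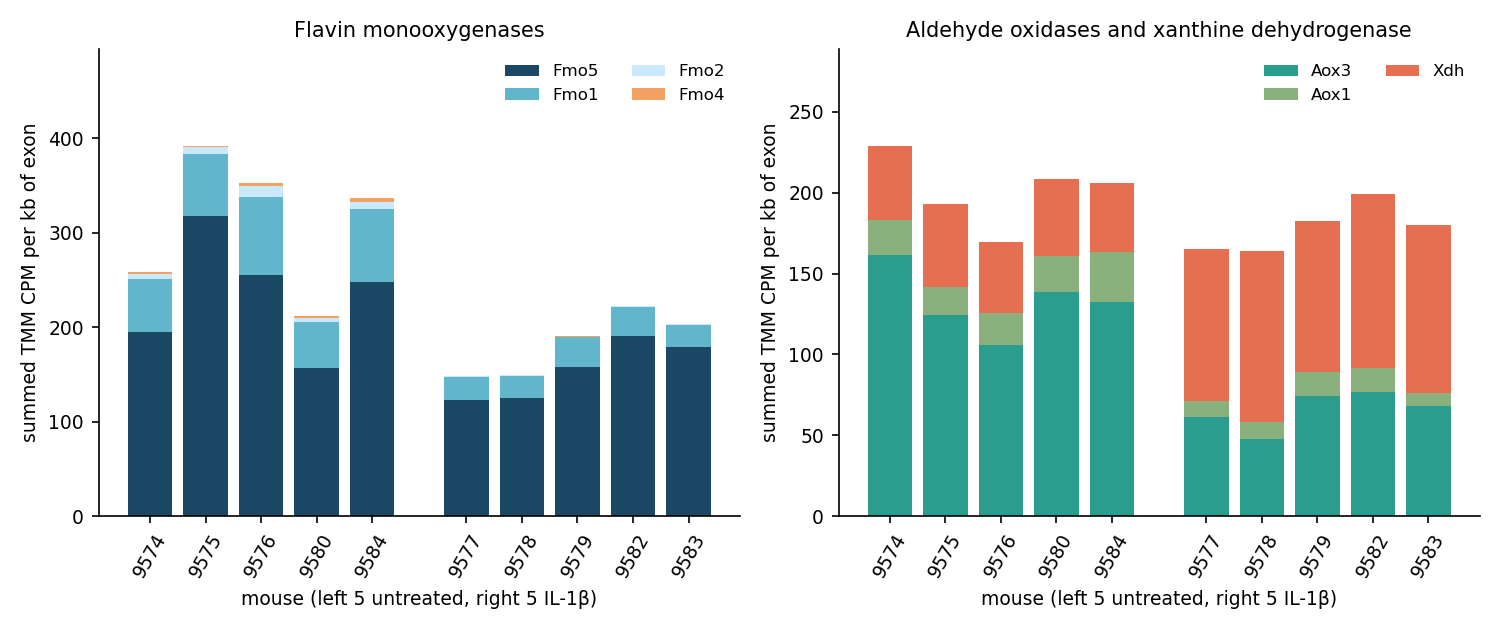
Summed TMM CPM per kb of exon in each mouse of the Illumina STAR table, for the 4 FMOs (left) and for Aox1, Aox3 and Xdh (right), with 5 untreated mice on the left and 5 treated mice on the right of each panel. The FMO sum runs from 212 to 392 in untreated and from 148 to 223 in treated mice, and the Xdh part of the right-hand bars is larger in all 5 treated mice.

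Ratios of 2 genes within a library do not depend on how the library is scaled. For each library, the log2 ratio of counts (plus 0.5) was taken and compared between 5 and 5 mice by a two-sided exact permutation test, for which 0.00794 is the smallest p that can be reached. The 3 ratios were adjusted together. Xdh to Aox3 was 0.05 ± 0.30 with IL-1β and -2.09 ± 0.24 without, a difference of 2.15 or 4.43-fold (exact p = 0.00794, adjusted p = 0.0119). The counts of each gene alone already separated the groups, in opposite directions. This ratio therefore had to separate them too, and its p adds nothing to the results of the single genes. Fmo5 to Fmo1 was 2.96 ± 0.26 and 2.204 ± 0.27, a difference of 0.75 (exact p = 0.00794, adjusted p = 0.0119), so Fmo1 fell further than Fmo5 within the same libraries. Aox1 to Aox3 was -2.21 ± 0.32 and -2.27 ± 0.34 (SD, n = 5 each). The difference of 0.06 (SE 0.21) was within the spread between mice (exact permutation p = 0.770, adjusted p = 0.770). This test does not show that the tandem genes fell equally.

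Individual mice kept their places across genes in part. In the Illumina STAR table, untreated mouse UNT_9580 was lowest of its group for Fmo1, Fmo2 and Fmo5, and mouse UNT_9576 was highest for Fmo1 and Fmo2. Mouse UNT_9584 was highest for Fmo4 and Aox1 and lowest for Xdh. Among treated mice, ILB_9582 was highest for Fmo5, Aox3 and Xdh. In the Ion Torrent STAR table, UNT_9580 was again the lowest untreated mouse for Fmo1 and Fmo5, and UNT_9576 again the highest for Fmo1 and Fmo2. UNT_9584 was again the highest for Aox1 and the lowest for Xdh, and ILB_9582 the highest treated mouse for Fmo5 and Aox3. Other places did not repeat. There UNT_9574 was the lowest untreated mouse for Fmo2, UNT_9576 the highest for Fmo4, and ILB_9583 the highest treated mouse for Xdh.

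The other 5 tables showed the same directions. Each called 6 of the 7 genes lower and Xdh higher. Of all genes tested, 23.9% were called lower and 23.7% higher in Illumina GSNAP, and 24.4% and 22.9% in Illumina STAR + Bowtie2. The Ion Torrent tables called 21.8% lower and 20.3% higher with STAR, 23.9% and 22.5% with GSNAP, and 24% and 22.8% with STAR + Bowtie2. The platforms sequenced the same RNA, so these tables repeat the measurement and not the mice. Over the 6 tables, the log2 fold change was -1.35 to -1.09 for Fmo1, -2.99 to -2.77 for Fmo2, -3.33 to -2.85 for Fmo4 and -0.61 to -0.53 for Fmo5. It was -0.96 to -0.82 for Aox1, -1.01 to -0.90 for Aox3 and 1.02 to 1.13 for Xdh. In Ion Torrent STAR, 31.1% of all genes had groups that did not overlap, and the same 6 of the 7 genes did, with Fmo5 again the exception.

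**Figure D3:**
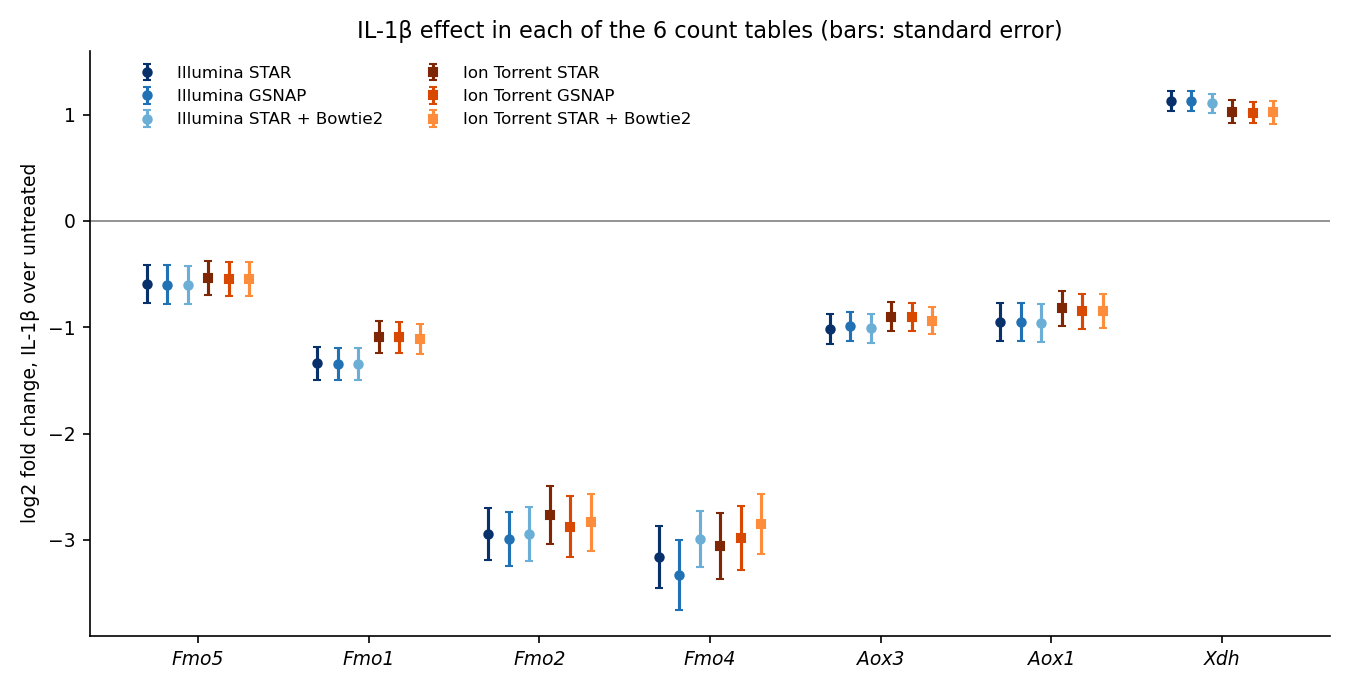
Log2 fold change of IL-1β over untreated for the 7 genes in each of the 6 tables, with bars for the standard error, Illumina as circles in shades of blue and Ion Torrent as squares from brown to orange. Each gene lies on the same side of 0 in all tables, from -3.33 for Fmo4 to 1.13 for Xdh.

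The STAR libraries of untreated mouse UNT_9584 were less alike between the platforms than those of the other mice. The deviations of a mouse's STAR libraries from their group means correlated at 0.591 to 0.736 between the platforms in 9 mice and at 0.249 in UNT_9584. This correlation does not say which library of that mouse differs. The paper reported a shifted read-length distribution for its Ion Torrent library. Without that library, a fit added after the data were examined, the Ion Torrent STAR log2 fold changes were -1.12 for Fmo1, -2.82 for Fmo2, -2.99 for Fmo4, -0.57 for Fmo5, -0.71 for Aox1, -0.94 for Aox3 and 0.98 for Xdh. All 7 calls stood.

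Whether the effect of IL-1β differed between the platforms was tested as a platform-by-treatment term over the 20 STAR libraries, with the mouse as a block. This term passed an adjusted p of 0.05 for 0.00642% of genes (1 of 15578) and for 0 of the 7 members, and 1090 genes had an unadjusted p below 0.05. For Fmo1, Ion Torrent gave a log2 fold change higher by 0.26 (95% interval 0.08 to 0.44, unadjusted p = 0.00603, edgeR adjusted p = 0.653). The terms of the other 6 genes were -0.09 to 0.19, with unadjusted p from 0.0572 (Aox3) to 0.805 (Fmo4). The 95% interval was widest for Fmo4, -0.72 to 0.92, and was -0.23 to 0.06 for Xdh. In all 7 genes the fitted change was smaller in size in the Ion Torrent STAR table. Of the 5741 genes called the same way in both STAR tables, 3003 (52.3%) were.

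Genes that make or carry the molybdenum cofactor, or that use it in other enzymes, were set beside the oxidases. Of 8 tested, 5 were called lower and 2 higher (all genes tested: 22.9% and 22.7%), with a median log2 fold change of -0.49 against 0.00 for all genes. Mosc1, a mitochondrial amidoxime-reducing molybdoenzyme, fell most (log2 fold change -1.25, SE 0.11, adjusted p = 3.59e-07). Mocs2, a subunit source of molybdopterin synthase, fell by 0.57 (SE 0.11, adjusted p = 0.000461). Mocs1, which starts the cofactor's synthesis, rose by 0.75 (SE 0.12, adjusted p = 9.29e-05). Mocs3, which activates molybdopterin synthase, rose by 0.91 (SE 0.27, adjusted p = 0.0122) from a low level of 0.838 CPM. Another entry with the symbol Mocs3 was too low to be tested, and how reads were split between the entries was not examined. Ion Torrent STAR gave the same counts, 5 lower and 2 higher.

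Genes of purine breakdown and salvage, the pathway of Xdh, moved in both directions. Of 12 tested, 2 were called lower and 4 higher (all genes tested: 22.9% and 22.7%), and the median was 0.22. Pnp, the phosphorylase that supplies hypoxanthine, rose 4.78-fold, from 66.6 to 318 CPM (log2 fold change 2.26, SE 0.11, adjusted p = 1.50e-09). Ampd3, an AMP deaminase, rose by 1.31 (SE 0.27, adjusted p = 0.00093) at 0.879 to 2.21 CPM. Uox, urate oxidase, which acts on the product of Xdh, fell from 2480 to 1332 CPM (log2 fold change -0.90, SE 0.13, adjusted p = 5.25e-05). Nt5e, an ectonucleotidase, fell by 0.53 (SE 0.21, adjusted p = 0.0498) and was not called in Ion Torrent STAR (adjusted p = 0.122). Pnp, Xdh and Uox are successive steps, and the first pair rose while the last fell.

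Of 7 tested genes that supply FAD or NADPH, 1 was lower and 1 higher (all genes tested: 22.9% and 22.7%). The other 5 were not called, and the median was -0.24. Pgd, an enzyme of the pentose phosphate pathway, rose by 0.77 (SE 0.12, adjusted p = 0.00014). Idh1, a cytosolic NADPH source, fell by 0.42 (SE 0.13, adjusted p = 0.0169) and was not called in Ion Torrent STAR (adjusted p = 0.0771). The adjusted p-values of these lists are from edgeR.

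Other genes within 500 kb of the members, a window chosen after the data were examined, moved in both directions. The counts below stand against 22.9% called lower and 22.7% called higher among all genes tested. Around the FMO cluster, 4 other genes were tested, and 3 were called higher and 0 lower. The nearest by its start, Prrc2c, rose by 0.52 (SE 0.13, edgeR adjusted p = 0.00434). Around the AOX cluster, 12 others gave 1 lower and 3 higher. Kctd18, whose start is 10.98 kb before that of Aox1, had a log2 fold change of -0.03 (SE 0.13, adjusted p = 0.882). Around Fmo5, 7 others gave 2 lower and 2 higher. Around Xdh, 6 others gave 5 lower and 0 higher, among them Ehd3 (log2 fold change -1.13, SE 0.14, adjusted p = 1.24e-05) and Srd5a2 (-2.82, SE 0.63, adjusted p = 0.00183).

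**Figure D4:**
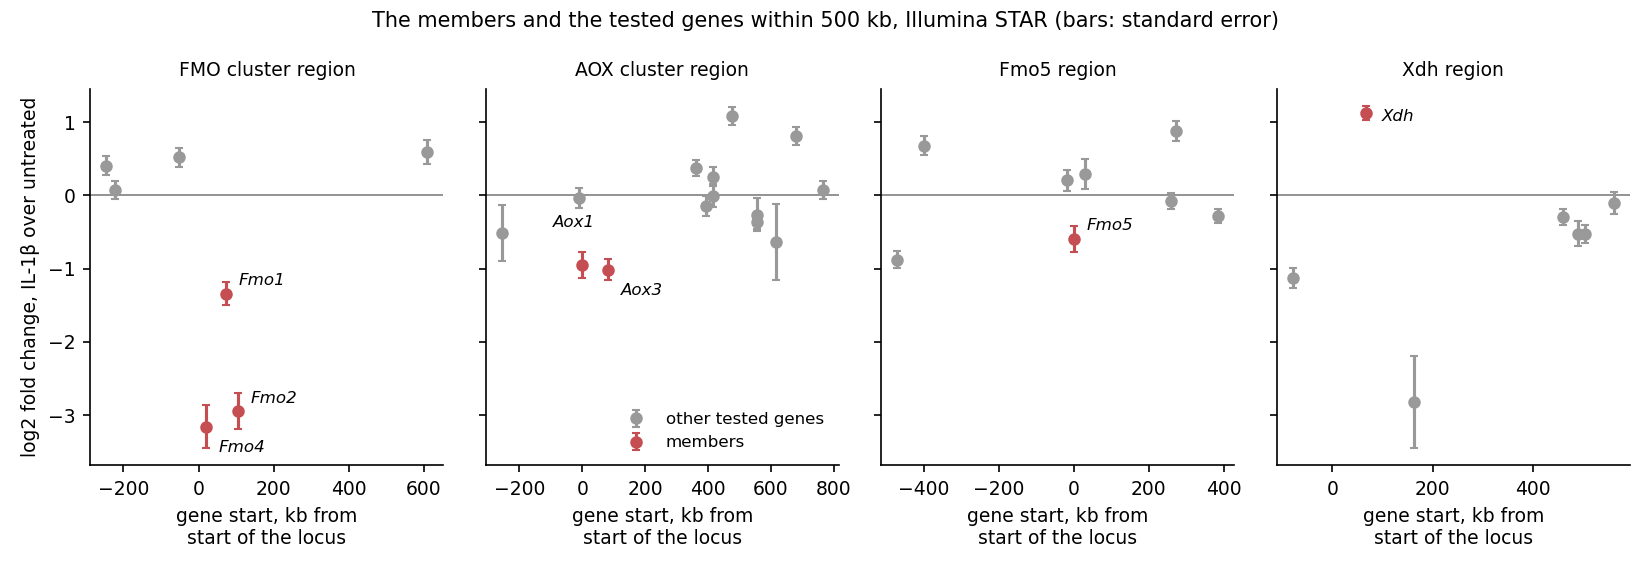
Log2 fold change (IL-1β over untreated, Illumina STAR, bars for the standard error) of the members in red and of other tested genes within 500 kb in gray, against the distance of each gene start from the start of the locus in kb. Fmo4, Fmo1 and Fmo2 lie from -3.16 to -1.34 between neighbors at 0.07 to 0.60, and Xdh at 1.13 is the only gene above 0 in its region.

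The genes whose pattern over the 10 Illumina STAR libraries was most like that of a member were taken from 7810 genes averaging 100 counts or more, by Pearson's r of log2 CPM. All libraries share the treatment contrast, so these values are a description. For Xdh they were Rab33b (r = 0.994), Tnfrsf12a (0.992) and Tm9sf4 (0.992). For Aox3 they were Abca8a (r = 0.992), Enpp5 (0.981) and Srd5a1 (0.979), all lower with IL-1β by 1.15 to 1.27 on the log2 scale. For Fmo5 they were Igfbp5 (r = 0.938), Deb1 (0.928) and 4833439L19Rik (0.898). Igfbp5, an insulin-like growth factor binding protein, fell from 15.5 to 2.54 CPM (log2 fold change -2.61, edgeR adjusted p = 0.000177), a larger change than that of Fmo5.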

How the data were processed

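Liver RNA of 5 IL-1β and 5 untreated mice was measured in 20 libraries. Per the labels and methods, the authors aligned reads to mm9 with STAR 2.5.1b, GSNAP, or STAR followed by Bowtie2 2.2.9. With PORT they removed rRNA and mitochondrial reads, drew reads at random so that libraries compared had equal numbers of gene reads, and counted on Ensembl models. The deposited values are whole-number counts per gene, and whether a count is a read or a read pair is not given in the sources used here. Re-sampling discards reads of the deeper libraries, and counting error applies to what is left. Totals were 10568530 to 12008799 (Illumina) and 12199528 to 16439683 (Ion Torrent). The upper limit of 3 reads for a total of 0 covers counting error only, whereas the 95% intervals of fold changes and platform terms come from the edgeR fits and include the spread between mice.

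Genes with at least 5 reads in 5 samples of any table were tested with edgeR 4.0.16 (TMM, quasi-likelihood, Benjamini-Hochberg, R 4.3.3), each table separately. Alternatives were the rank-sum test on the deposited counts without TMM, DESeq2 1.42.0, limma-voom 3.58.1, other scalings and filters, other tables, and leaving out each mouse. Mouse numbers pair the platforms, since 1 RNA gave both libraries. The deviations of paired libraries from their group means correlated at 0.249 to 0.736 (STAR, 10543 genes averaging 20 counts or more). On simulated counts for 15578 genes with 200 changed, edgeR recovered 193 with 8 false calls, and the platform-by-treatment fit 195 with 6. The changes were placed only in genes above a minimum mean count. They were larger in size than the fall of Fmo5 and than the platform term of every member. The platform simulation also used a set spread between libraries, not that of the data. These recoveries therefore do not measure power for the smaller changes. The rank-sum test recovered 0, an outcome set by the simulation. Its smallest exact p with 5 against 5 is 0.00794, and 200 changed genes are too few for that to pass the adjustment. In the deposited Illumina STAR counts the same test called 3823 genes lower and 2154 higher, so this 0 does not measure its power there.

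The members and lists were chosen with earlier results of these data known. Named besides the members and their paralogs were up to 2 largest rises and 2 largest falls per list among called genes, and the 3 genes most correlated with Fmo5, Aox3 and Xdh. Neighboring genes were chosen after their values were seen. Positions and exons come from Ensembl models on NCBIM37, whose bounds, padded by 250 bases, equal the file coordinates for 37308 of 37310 genes. Promoter windows come from RefSeq (GRCm38.p6), with entries for 5 of the 7 genes, and were located in NCBIM37 by exact match. Coding transcripts were compared with BLAST 2.17.0+ and Biopython 1.88, and exact tests used SciPy 1.17.1.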

Additional observations from a re-analysis of the deposited data

Results flagged for a closer look

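In 40 groups of 5 mice (each gene and ratio, by treatment, in both STAR tables), the highest or lowest value was checked for a gap to its nearest neighbor above 0.71 of the group's range. Chance flags about 1 in 20 groups, or 2 of 40, and 2 were found. In the Ion Torrent STAR table, untreated mouse UNT_9576 had 317 CPM of Fmo1, above the other 4 untreated mice (190 to 226). In the Illumina STAR table, untreated mouse UNT_9575 had a log2 ratio of Fmo5 to Fmo1 of 2.67, above the other 4. Without UNT_9575 the difference in that ratio between treated and untreated mice was 0.87, against 0.75 with all mice.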

How the results depend on the processing

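Over the alternatives run on Illumina STAR and the other 5 tables, 6 members were called lower and Xdh higher, except under the rank-sum test without TMM, where Fmo5 was not called (log2 fold change -0.77, q = 0.0699). Leaving out 1 mouse at a time gave -0.71 to -0.46 for Fmo5, with edgeR adjusted p of 0.00301 to 0.0436, and all 7 calls stood each time. With library totals in place of TMM, the median log2 fold change of all genes moved to -0.12, 4335 genes were called lower and 2746 higher, and the members ran from -3.27 (Fmo4) to 1.0 (Xdh). The rank-sum test, also without TMM, called 3823 genes lower and 2154 higher, with a median of -0.17, so test and scaling were not separated.

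The log2 difference in Aox1 to Aox3 ran from -0.015 to 0.19 when 1 mouse was left out, and was below 0 without ILB_9578 (-0.013), UNT_9574 (-0.015) or UNT_9575 (-0.0098). Fmo5 to Fmo1 ran from 0.65 to 0.87 and Xdh to Aox3 from 2.02 to 2.22. Platform terms changed sign for Fmo2 without ILB_9582 (-0.0015, range to 0.29) and for Fmo4 without ILB_9577 (-0.22), ILB_9582 (-0.11) or UNT_9584 (-0.013), with a range to 0.54. The cause was not tested. Without the replicate block, the Fmo1 term was 0.26 (edgeR adjusted p = 1), and 0 members and 0 genes were called, with 244 genes at an unadjusted p below 0.05. With it, 1 gene was called, and the block changed no member's call. DESeq2 called 3 genes for this term and limma-voom 0.

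Shares moved with length and platform. Per kb of the longest coding transcript, Fmo5 went from 64.9% to 76.9% of the FMO sum and Xdh from 16.3% to 45.9% of its sum. In Ion Torrent STAR, these were 72.6% to 80.8% and 26.6% to 57.6%. Depth limits Fmo4, with 6 to 15 reads in treated mice, and leaves Fmo9, Aox3l1 and Aox4 untested.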
